A study of Mus musculus with 45 samples.

Results

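The domains described here are the very broad regions of histone H3 lysine 9 acetylation (H3K9ac) in the mouse hippocampus, taken as the autosomal domains of the deposited domain list that are at least 5000 bp wide. Of 44165 domains in the list, 43341 lie on autosomes and 709 of these (1.64%) met the width limit. Another 4 domains of that width lie on the X or Y chromosome and were left out. The limit used width alone and no difference between groups. The list is, however, one common list for the study, and width in such a list is not independent of how strongly a region is acetylated.

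Whole hippocampus was assayed for H3K9ac by ChIP-seq, in which DNA bound to the modified histone is pulled down with an antibody and sequenced, in 2 mouse models of neurodegeneration. The first was Tau (MAPT P301S), a transgenic mouse carrying a human tau with a dementia-linked mutation, set against wild-type controls: females aged 6 months (2 libraries of Tau, 3 of wild type) and males aged 11 months (3 of each). The second was CK-p25, a double-transgenic mouse in which p25, a truncated activator of the kinase Cdk5, is switched on in forebrain neurons, set against CK control littermates. These mice were all female, entered induction at 3 months of age and were sampled 2 or 6 weeks later (3 CK-p25 and 3 CK libraries at each time). The labels number the replicates without saying in so many words that each is a separate animal, so the tests measure the spread between these libraries. In the tau mice, age and sex changed together and cannot be told apart, and the labels give different antibody lots for the 2 models, so levels are compared only within a model. No source used here names the promoter that drives the tau transgene.

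Acetylation of H3K9 is laid down by histone acetyltransferases such as GCN5 and PCAF, is removed by histone deacetylases, and marks active promoters and many active enhancers. Most promoters carry a short stretch of the mark on either side of the transcription start. Very broad stretches of active-promoter and enhancer marks are known from other work to lie at genes that define a cell's identity and are highly transcribed there, and in brain tissue many such genes are neuronal. Whole tissue holds neurons and glia together, so fewer cells of a type and less of the mark per cell cannot be told apart in these libraries. The domain list uses the mm9 build, for which no gene annotation was used here, so domains are named by position and neither gene names nor cell type markers were checked.

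The 709 very broad domains ranged from 5000 to 28979 bp, with a median width of 6002 bp and quartiles of 5411 and 7068 bp. Of these, 353 were under 6 kb, 215 were between 6 and 7.5 kb, 95 were between 7.5 and 10 kb, and 46 were at least 10 kb. They covered 4.73 Mb, which was 9.05% of the length of all autosomal domains. Every chromosome held some of them: 67 lay on chromosome 11 and 60 on chromosome 2, and their share of a chromosome's domains ran from 0.958% on chromosome 4 to 2.21% on chromosome 19.

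The density of the mark in very broad domains was close to that in domains of 2000 to under 5000 bp and above that in narrower ones. Normalised counts (CPM) are reads scaled to the library's reads in the tested domains. The density, given as CPM per kb of domain, had a median of 22.1 over the very broad domains (quartiles 17.4 and 26.7, range 7.09 to 52.1). The median was 23.9 in the 7442 domains of 2000 to under 5000 bp, 14.7 in the 9862 of 1000 to under 2000 bp and 9.49 in the 25328 under 1000 bp. The densest very broad domain, chr12:88221248-88226636, had 52.1 CPM per kb, followed by chr5:22936403-22943262 with 51.6 and chr6:86473139-86478245 with 49.6. The sparsest, chr17:10589188-10595859, had 7.09 CPM per kb, below the median of the narrowest class. Very broad domains also sat among other domains: the gap to the nearest one had a median of 813 bp, against 2579 bp over all autosomal domains, and 53.2% had a neighbour closer than 1 kb, against 39.3%. A median of 75 other domains lay within 1 Mb, against 64, and 3 very broad domains had none.

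Because they are wide, these domains were measured more precisely than most. Averaged over the 23 libraries, they held a median of 525 reads (quartiles 402 and 695, lowest 151). The median was 82.0 in domains of 1000 to under 2000 bp and 14.5 in those under 1000 bp. In the shallowest library, CK replicate 3 at 6 weeks, the median very broad domain held 142 reads. The reads counted in all domains ranged from 4097974 to 6181925 per library in the tau mice and from 996369 to 4133003 in the CK-p25 mice. All 709 very broad domains passed the filter on low counts in both models.

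The very broad domains held a smaller share of the reads counted in all domains in the diseased mice of 3 of the 4 comparisons. At 6 months the share was 10.6%, 10.5% and 10.4% in wild type and 10.5% and 10.7% in Tau, and the groups overlapped. At 11 months it was 10.3%, 10.4% and 9.99% in wild type and 9.45%, 9.41% and 9.23% in Tau. All 3 Tau libraries lay below all 3 wild-type libraries, with means of 9.36% ± 0.115 and 10.2% ± 0.201 (SD, n = 3 each), a difference of -0.846 percentage points. At 2 weeks of p25 the share was 11.1%, 11.2% and 11.3% in CK and 11.0%, 10.6% and 10.9% in CK-p25, a difference of -0.413 points without overlap. At 6 weeks it was 11.0%, 11.3% and 11.3% in CK and 10.5%, 10.8% and 10.3% in CK-p25, a difference of -0.638 points without overlap. No test is given for this share, which sums over the chosen domains. Domains of 2000 to under 5000 bp held 50.0% of the reads counted in all domains in wild type at 11 months. Their share differed by -0.484, -0.342 and -0.211 points in these 3 comparisons, and the groups overlapped in each. The share in domains under 1000 bp differed by 0.599 points at 11 months without overlap, from 11.7% in wild type to 12.3% in Tau, and by 0.384 and 0.173 points with overlap at 2 and 6 weeks.

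**Figure D1:**
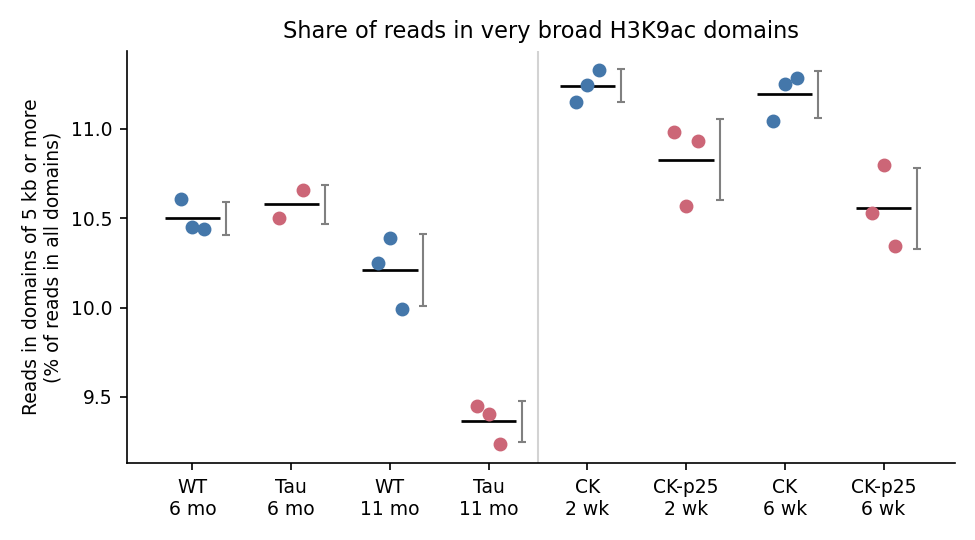
Reads in the 709 very broad domains as a percentage of reads in all domains (vertical axis, which does not start at 0), for each of the 23 H3K9ac libraries. Points are libraries, black lines are group means and grey bars are SDs; controls are blue and diseased mice red. The Tau libraries at 11 months, at 9.23% to 9.45%, lie below all other libraries.

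One measure of library quality moved with the result at 11 months. The cross correlation that the labels give for each library, a measure of how tightly reads cluster into enriched sites, averaged 0.228 in Tau and 0.313 in wild type at 11 months, without overlap, and 0.243 and 0.245 at 6 months. In the CK-p25 mice it went the other way from the share, with means of 0.167 against 0.138 in CK at 2 weeks and 0.131 against 0.0928 at 6 weeks, both with overlap. Depth differed in the same direction as cross correlation. Mean reads counted in all domains were lower in CK than in CK-p25 at both times, with overlap. They were higher in wild type than in Tau at 11 months, also with overlap. In the CK-p25 model, cross correlation was 0.187 in the deepest library (4133003 reads) and 0.0640 in the shallowest (996369 reads). These were its highest and lowest values there. Whether depth accounts for the differences in cross correlation was not tested.

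In Tau females at 6 months, no very broad domain passed the test against wild type. The test throughout is edgeR's quasi-likelihood test with Benjamini-Hochberg adjustment over every domain tested, called at an adjusted p under 0.05. It called 0% of the 44105 domains tested at this age, and DESeq2 likewise called 0 of the very broad domains. At an unadjusted p under 0.05 there were 33 very broad domains (4.65%), against 3.23% of all domains tested. The log2 changes lay close to 0, with a median of 0.01 and quartiles of -0.04 and 0.05, and 322 of 709 were negative. The median SE was 0.07.

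In Tau males at 11 months, 359 of the 709 very broad domains differed from wild type, mostly downwards. The test called 305 lower (43.0%) and 54 higher (7.62%), and 350 passed in neither direction. Over all domains tested, the background was 12% called, 7.56% lower and 4.4% higher. The median log2 change of the 709 was -0.12 (quartiles -0.35 and 0.03), against 0.01 over all domains tested, and 497 of 709 values were negative. Losses also went further than gains: 117 of the 305 had a log2 change of -0.5 or below, while 2 of the 54 reached 0.5. Over all domains tested, 1897 of 3333 called lower and 1217 of 1940 called higher went that far. Changes of this size were thus less common among called very broad domains, in both directions. All 3 Tau libraries lay below all 3 wild-type libraries at 345 of the very broad domains (48.7%), against 13.8% of all domains tested, and above them at 10.7%, against 11.2%.

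Loss became more frequent with width. The share of domains called lower at 11 months was 2.72% under 1000 bp, 8.52% from 1000 to under 2000 bp, 18.9% from 2000 to under 5000 bp and 43.0% in the very broad class, while the share called higher was 2.88%, 6.40%, 6.83% and 7.62%. Wider domains hold more reads, and precision rose with them (median SE 0.31 in the narrowest class and 0.06 in the broadest), so counts of calls alone overstate the difference between classes. The median log2 change, which does not depend on a threshold, was 0.03, 0.01, -0.02 and -0.12 in the same order. Among domains whose mean CPM lay between the quartiles of the very broad ones, 18.9% of 761 domains of 2000 to under 5000 bp were lower, with a median log2 change of -0.04, against 46.2% of 355 very broad domains, with a median of -0.14. That window starts at 105.5 CPM, above the upper quartile of 85.6 CPM in the domains of 2000 to under 5000 bp. Equal CPM over fewer kb also means a higher density, so width and density differ together in this comparison. These are descriptions, with no test of the classes against each other.

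**Figure D2:**
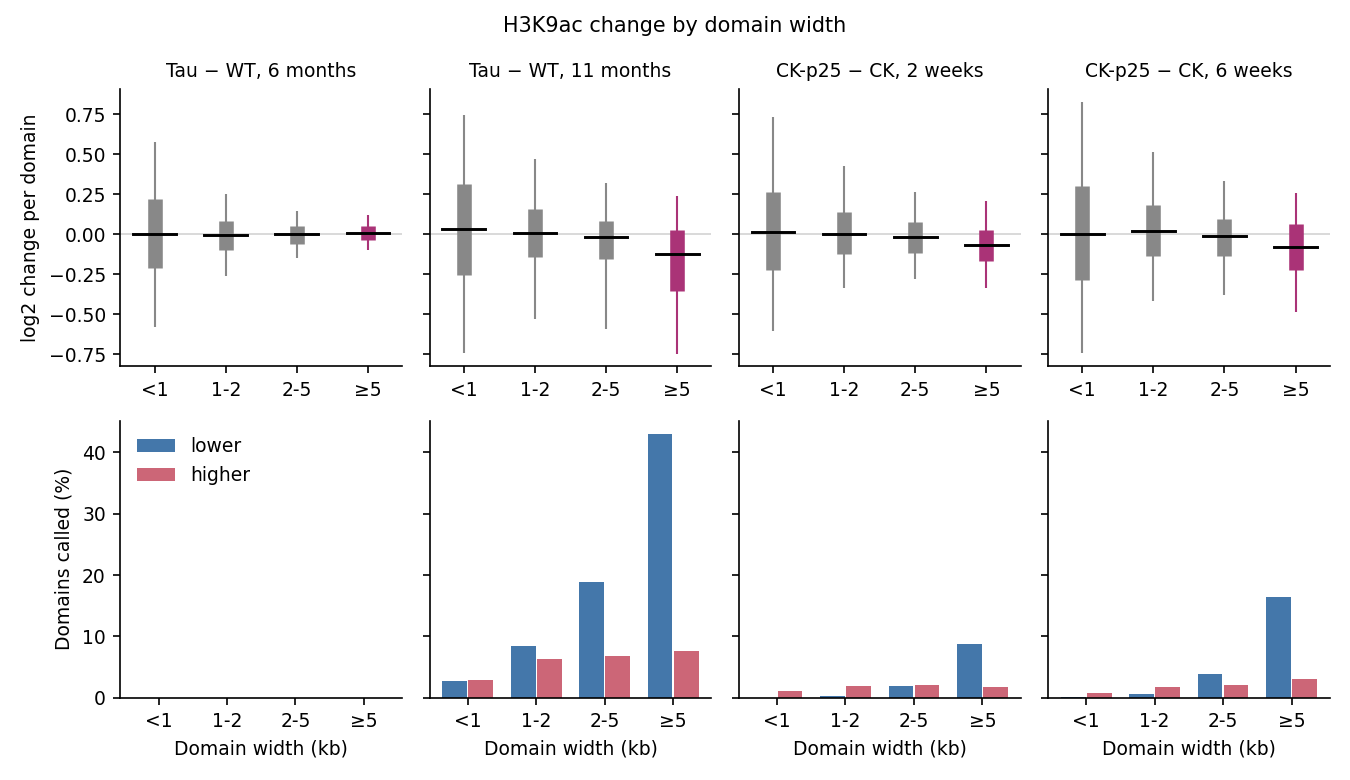
Upper row: log2 change per domain (diseased minus control) by width class in kb, with the median as a black line, the quartiles as a thick bar and the 5th to 95th percentiles as a thin line. Lower row: percentage of domains in each class that edgeR called lower (blue) or higher (red). The very broad class (purple) has the lowest median in 3 comparisons and the tallest blue bar, 43.0%, at 11 months.

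The strongest loss at 11 months was at chr9:106554205-106560104, a domain of 5900 bp. Its normalised count was 111, 120 and 98.5 CPM in wild type and 53.5, 52.6 and 44.2 CPM in Tau. Every Tau library lay far below every wild-type library, at 0.455 times the level, a log2 change of -1.14 ± 0.08 (SE; adjusted p = 3.93e-18). At chr9:58043494-58053100, 9607 bp wide, the counts were 165, 175 and 171 CPM in wild type and 96.5, 103 and 86.8 CPM in Tau. The groups stood well apart, with a log2 change of -0.84 ± 0.06 (edgeR adjusted p = 2.48e-17). At chr2:28061404-28068757, 7354 bp wide, they were 189, 183 and 167 CPM in wild type and 94.5, 98.1 and 75.6 CPM in Tau, a log2 change of -1.01 ± 0.07 (edgeR adjusted p = 6.75e-17). At 6 months the same 3 domains had log2 changes of -0.01, 0.12 and 0.09, none of which passed. The next 5 losses by adjusted p were chr15:98633780-98640310 (log2 change -0.85), chr3:17952392-17957676 (-0.85), chr11:4956850-4965915 (-0.71), chr11:119405677-119411322 (-0.77) and chr6:136118674-136124006 (-0.79).

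The clearest gain at 11 months was at chr2:160189559-160195040, a domain of 5482 bp with a low density of 10.5 CPM per kb. Its counts were 48.9, 49.6 and 40.3 CPM in wild type and 76.1, 65.7 and 77.5 CPM in Tau. The groups did not overlap, and the log2 change was 0.67 ± 0.08 (edgeR adjusted p = 1.67e-09). Second came chr2:30117413-30123009, also sparse at 11.6 CPM per kb, with 51.7, 54.1 and 47.3 CPM in wild type and 71.9, 77.5 and 85.7 CPM in Tau, a log2 change of 0.62 ± 0.08. The remaining named gains were smaller: chr7:29160009-29165012 (0.48), chr7:20280175-20287743 (0.40), chr9:56770647-56776897 (0.39), chr7:109391556-109400091 (0.33), chr8:28086395-28092252 (0.33) and chr19:5839371-5853325 (0.30). Of the very broad domains split into 4 equal groups by density, 57 of 178, 87 of 177, 99 of 177 and 62 of 177 were lower from the sparsest group to the densest, and 25, 13, 6 and 10 were higher.

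**Figure D3:**
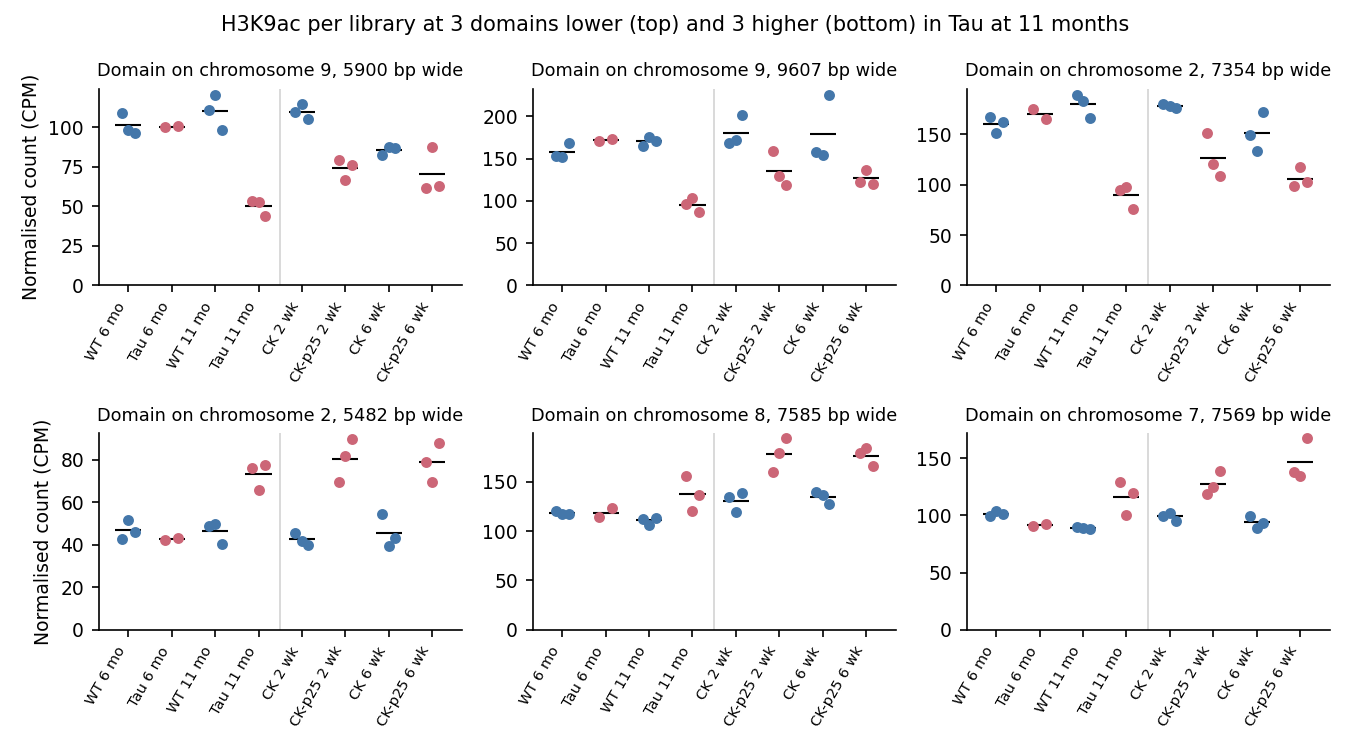
Normalised counts (CPM, linear axis from 0) in each library at 6 very broad domains, with black lines at group means, controls in blue and diseased mice in red; CPM is scaled separately on the 2 sides of the grey line. In the top row the 3 Tau libraries at 11 months lie below all 3 wild-type libraries, and in the bottom row they lie above them.

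With cross correlation as a covariate, edgeR called 103 very broad domains lower and 6 higher at 11 months. The median log2 change was -0.13, against -0.12 without it. Because cross correlation did not overlap between Tau and wild type at this age, this fit cannot tell it apart from the transgene. A loess scaling, which by its construction removes a shift common to domains with many reads, gave 236 lower and 119 higher and moved the median log2 change to -0.02.

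The 2 ages were compared directly, as the Tau effect at 11 months minus that at 6 months. The test called 201 very broad domains more negative at 11 months (28.4%) and 15 more positive (2.12%), against a background of 4.23% called, 3.21% more negative and 1.02% more positive, with a median difference of -0.13 on the log2 scale. All 201 were among the 305 lower at 11 months, and all 15 among the 54 higher. Both comparisons use the same 11-month libraries, so this overlap is not independent evidence. At chr9:106554205-106560104 the wild-type counts at 6 months were 109, 98.2 and 96.2 CPM and the Tau counts 99.9 and 101 CPM, so the 2 ages differed by -1.12 ± 0.11 (edgeR adjusted p = 3.78e-11). With cross correlation as a covariate, 81 were more negative and 5 more positive, and the median difference was again -0.13. The same limit on this covariate holds here. Loess scaling gave 163 and 38, with a median of -0.03.

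After 2 weeks of p25, 62 very broad domains were lower than in CK (8.75%) and 12 higher (1.69%). Over the 38193 domains tested, the background ran mostly the other way, at 2.12% called, 0.613% lower and 1.51% higher. The median log2 change of the very broad domains was -0.07 (quartiles -0.17 and 0.03), and 486 of 709 were negative. At 26.4% of them all CK-p25 libraries lay below all CK libraries, against 7.46% of all domains tested. The share called lower was 0.046%, 0.243% and 1.85% in the 3 narrower classes from narrow to broad. Their median log2 changes were 0.01, 0.00 and -0.02. The median SE was 0.35 in the narrowest class and 0.08 in the broadest, so counts of calls alone again overstate the difference. Among domains with mean CPM between the quartiles of the very broad ones, 1.58% of those of 2000 to under 5000 bp were lower. The share was 10.1% of very broad domains, and width and density again differ together here.

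The leading loss at 2 weeks was chr11:98185122-98191515, with 200, 179 and 205 CPM in CK and 146, 117 and 126 CPM in CK-p25. The groups did not overlap, and the log2 change was -0.57 ± 0.08 (edgeR adjusted p = 8.06e-07). The domain chr9:106554205-106560104, which led at 11 months in Tau, came next, with 110, 115 and 105 CPM in CK and 79.5, 66.7 and 76.0 CPM in CK-p25, a log2 change of -0.58 ± 0.09. Other losses were chr1:75380543-75386502 (-0.52), chr19:41812500-41818793 (-0.52), chr2:28061404-28068757 (-0.47), chr2:12927975-12933556 (-0.47), chr11:72831570-72836689 (-0.43) and chr11:118766494-118771665 (-0.39). The gain at chr2:160189559-160195040 was larger than any of these, with 45.7, 41.8 and 40.0 CPM in CK and 69.5, 81.9 and 90.0 CPM in CK-p25, a log2 change of 0.91 ± 0.11 (edgeR adjusted p = 2.5e-10). At chr8:91558830-91566414 the counts were 134, 119 and 139 CPM in CK and 160, 179 and 195 CPM in CK-p25 (log2 change 0.45 ± 0.08). Further gains at 2 weeks, such as chr3:107558513-107563949 (0.32), chr3:115412853-115419272 (0.31) and chr6:145808728-145815871 (0.27), did not pass at 11 months in Tau, where their log2 changes were 0.10, 0.03 and -0.01.

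The number of calls at 2 weeks depended on single libraries: 36 were called without CK replicate 2, 27 without CK-p25 replicate 2 and 45 without CK-p25 replicate 3, against 74 with all. DESeq2 called 22 lower and 5 higher, and loess scaling gave 37 lower and 29 higher.

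After 6 weeks of p25, 116 very broad domains were lower (16.4%) and 22 higher (3.10%), against a background of 2.65% called, 1.33% lower and 1.32% higher. Their median log2 change was -0.08 (quartiles -0.23 and 0.06), and 457 of 709 were negative. All CK-p25 libraries lay below all CK libraries at 29.5% of them, against 8.46% of all domains tested. The share called lower in the 3 narrower classes was 0.160%, 0.679% and 3.86%, and their median log2 changes were -0.001, 0.02 and -0.01. The median SE was 0.40 in the narrowest class and 0.09 in the broadest, with the same limit on counts of calls. Among domains with mean CPM between the quartiles of the very broad ones, 3.81% of those of 2000 to under 5000 bp were lower. The share was 16.6% of very broad domains, with the same mixing of width and density.

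The leading loss at 6 weeks was chr13:36821380-36828820, with 175, 211 and 224 CPM in CK and 129, 142 and 114 CPM in CK-p25. The groups did not overlap, and the log2 change was -0.61 ± 0.09 (edgeR adjusted p = 1.03e-06). At chr12:62622209-62628110, one of the 3 very broad domains with no other domain within 1 Mb, the counts were 140, 140 and 151 CPM in CK and 95.1, 91.4 and 76.5 CPM in CK-p25, a log2 change of -0.66 ± 0.10. Other losses were chr3:17952392-17957676 (-0.65), chr9:40076000-40081369 (-0.61), chr11:118766494-118771665 (-0.58), chr3:68375473-68381741 (-0.54), chr14:65203968-65212553 (-0.50) and chr11:23973234-23984917 (-0.49), the last of them 11684 bp wide. Gains were led by chr7:20280175-20287743, with 99.2, 88.8 and 93.3 CPM in CK and 138, 135 and 168 CPM in CK-p25, a log2 change of 0.60 ± 0.09 (edgeR adjusted p = 5.04e-06). The domain chr2:160189559-160195040 rose again, by 0.69 ± 0.12, and was followed by chr15:101929504-101935939 (0.50), chr3:96360738-96366512 (0.45) and chr4:135697720-135703746 (0.44).

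Of the 6-week libraries, CK replicate 2 and CK-p25 replicate 1 each moved the count by over 1.5 times, to 81 without the former and 69 without the latter, from 138 with all. Without the 2 shallowest 6-week libraries, 52 were lower and 9 higher, and loess scaling gave 71 lower and 42 higher. Between 6 and 2 weeks the p25 effect itself differed at 0 of the 709 very broad domains by edgeR, at a background of 0.00524%, and at 0 by DESeq2. At an unadjusted p under 0.05 there were 69 (9.73%), against 4.76% of all domains tested.

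The CK-p25 and Tau comparisons share no library, and nearly all very broad domains that fell in CK-p25 also fell in Tau at 11 months. All 62 lower at 2 weeks of p25 were lower at 11 months in Tau, and they made up 20.3% of the 305. Of the 116 lower at 6 weeks, 114 (98.3%) were lower at 11 months, 37.4% of the 305. Of the gains, 7 of 12 (58.3%) at 2 weeks and 16 of 22 (72.7%) at 6 weeks were also higher at 11 months, which was 13.0% and 29.6% of the 54. No very broad domain was called higher in one of these 3 comparisons and lower in another. Across the 709, Spearman's rho between the log2 changes was 0.83 for Tau at 11 months and 6 weeks of p25, and 0.70 for Tau at 11 months and 2 weeks. Between 2 and 6 weeks of p25, within 1 model, rho was 0.69. Within each comparison the 709 values come from the same libraries, so these are descriptions over domains. The same overlaps were not computed over all domains tested, so none of this is shown to be particular to very broad domains.

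The domains called in Tau at 11 months were followed in the other comparisons, called there or not. The 305 that were lower in Tau at 11 months had a median log2 change of -0.17 at 2 weeks of p25, with 281 negative, and of -0.25 at 6 weeks, with 297 negative. The same 305 had a median of 0.00 in Tau at 6 months, with 144 negative. The 54 that were higher had a median of 0.04 at 6 months, with 19 negative, of 0.04 at 2 weeks, with 14 negative, and of 0.22 at 6 weeks, with 1 negative.

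**Figure D4:**
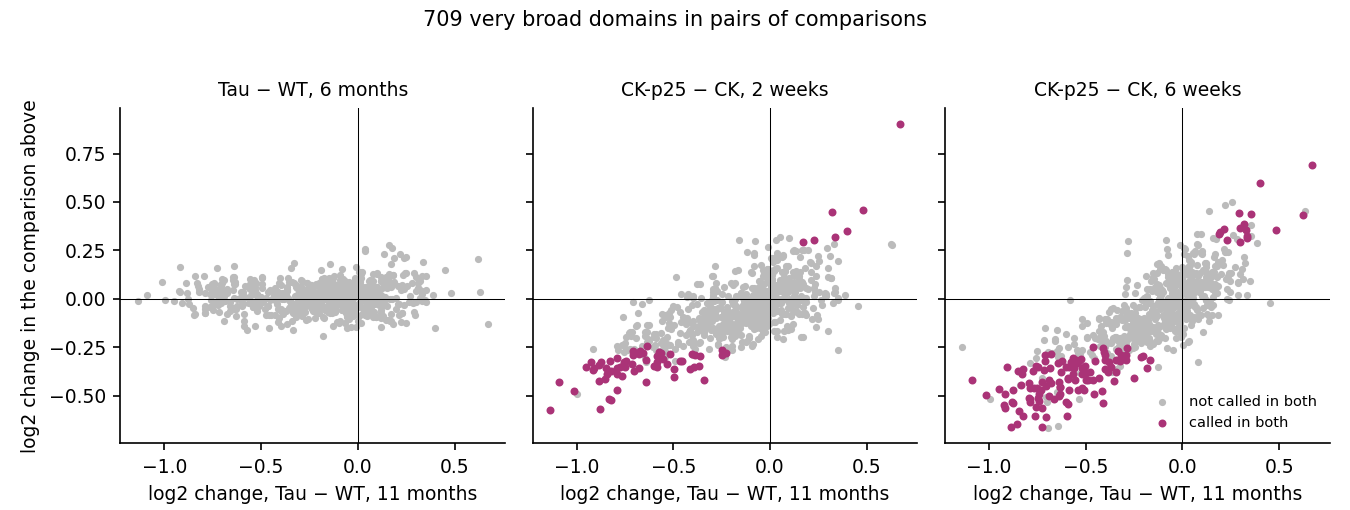
Log2 change of the 709 very broad domains in Tau at 11 months (horizontal) against Tau at 6 months, CK-p25 at 2 weeks and CK-p25 at 6 weeks (vertical); each point is a domain, purple where both comparisons called it. The CK-p25 values run along a rising band (rho 0.70 and 0.83), while the values at 6 months lie flat around 0.

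Lower in all 3 comparisons were 44 very broad domains, and 6 were higher in all 3. No such count was made over all domains tested. At chr16:9989716-9996371 the counts were 183, 194 and 169 CPM in wild type and 92.5, 117 and 81.9 CPM in Tau at 11 months, and the log2 changes were -0.92, -0.37 and -0.49 in Tau, at 2 weeks and at 6 weeks. At chr12:109230759-109242501, a domain of 11743 bp, the counts were 194, 215 and 191 CPM in wild type and 108, 138 and 103 CPM in Tau, and the log2 changes were -0.79, -0.36 and -0.51. In Tau at 11 months both had clearly separated groups. Others in this set were chr16:34258009-34263977 (-0.79, -0.39 and -0.46), chr8:35867999-35874011 (-0.58, -0.35 and -0.47) and chr14:70856643-70862431 (-0.68, -0.36 and -0.44). The 6 higher in all 3 were chr2:160189559-160195040, chr8:91558830-91566414, chr7:20280175-20287743, chr7:29160009-29165012, chr12:81212003-81217715 and chr8:28086395-28092252. At the last of these, an adjusted p of 0.0468 at 6 weeks lay just inside the threshold, and it was over 0.05 under several other settings, such as 0.0507 with DESeq2 size factors.

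Among the 46 very broad domains of at least 10 kb, 29 were lower at 11 months (63.0%) and 1 was higher. The share lower was 38.2% from 5 to under 6 kb, 44.7% from 6 to under 7.5 kb and 47.4% from 7.5 to under 10 kb. Over all domains tested it was 7.56%. The median SE was 0.0646 in the narrowest of these steps and 0.0528 in the widest, so precision rose with width here too. This rise was not seen at each step in CK-p25. At 6 weeks the shares lower were 16.1%, 15.3%, 13.7% and 28.3% from narrow to wide. At 2 weeks the widest step had the lowest share, 6.52%, and the step below it the highest, 10.5%. The broadest domain of all, chr13:83852519-83881497, spans 28979 bp. It had 723, 767 and 686 CPM in wild type and 579, 609 and 498 CPM in Tau at 11 months, a log2 change of -0.37 ± 0.05 (edgeR adjusted p = 1.19e-07). After 6 weeks of p25 its log2 change was -0.35 (adjusted p = 0.000522), while at 2 weeks it was -0.10 and did not pass.

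The second broadest, chr1:134266917-134288202 (21286 bp), had a log2 change of -0.20 at 11 months (edgeR adjusted p = 0.00262) and of 0.00 at 6 weeks, which did not pass. A larger loss was seen at chr12:30210707-30224504 (13798 bp), with log2 changes of -0.64 in Tau at 11 months and -0.50 at 6 weeks of p25. Smaller losses at 11 months were called at chr15:85501391-85517375 (-0.21) and chr2:44958473-44974210 (-0.14). The single gain of at least 10 kb was chr19:5839371-5853325, with 288, 274 and 287 CPM in wild type and 359, 311 and 373 CPM in Tau. The other 4 of the 10 broadest did not pass at 11 months, at chr9:57786299-57803593 (-0.07), chr11:120085474-120101239 (-0.05), chr5:143572236-143585976 (-0.10) and chr2:92262120-92275591 (-0.15).

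Domains close to the width limit on either side had changes in both directions. At 11 months the log2 changes of the 3 narrowest inside it were 0.00 at chr3:135099907-135104906 (5000 bp), -0.70 at chr1:134776402-134781405 (5004 bp) and 0.48 at chr7:29160009-29165012 (5004 bp). Just outside it they were -0.23 at chr9:47337299-47342295 (4997 bp), -0.69 at chr15:95354557-95359553 (4997 bp) and 0.21 at chr5:45883991-45888983 (4993 bp).

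The very broad domains were also split into 4 equal groups by the number of other domains within 1 Mb. From few to many, 51.9%, 44.9%, 41.0% and 33.9% were lower in Tau at 11 months, and 23.2%, 15.7%, 15.6% and 10.7% at 6 weeks of p25. At 2 weeks the 4 groups lay between 8.29% and 9.25%. Within the class, width itself had little relation to the change at 11 months over 709 domains. Spearman's rho was -0.08 with the signed log2 change and 0.08 with its absolute size.

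Most domains beside a very broad one did not pass the test themselves. Of the 305 very broad domains lower at 11 months, 239 had others within 10 kb, 804 in all, with a median width of 702 bp. A neighbour was counted once for each very broad domain it lay beside. Of the 804, 137 were lower and 5 higher, and their median log2 change was -0.22. The test called 7.56% of all domains lower and 4.4% higher, and 2.72% and 2.88% of autosomal domains under 1000 bp. Around the very broad domains that were higher, 16 of 164 such neighbours were higher and 2 lower, with a median of 0.24. Around those that passed in neither direction, 28 of 1069 were lower and 37 higher. Of 115 pairs of consecutive very broad domains within 100 kb of each other, 74 had changes of the same sign at 11 months. At 6 months, where no domain was called, 71 did. Negative changes were 497 of 709 at 11 months and 322 at 6 months, so these pair counts do not share a baseline. In 5 pairs at 11 months one was called lower and the other higher.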

How the data were processed

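H3K9ac and input chromatin from mouse hippocampus were sequenced in 45 libraries (23 H3K9ac, 22 input). Per the submitters' processing notes, the tools included BWA, Picard 1.1175 and MACS2, with build mm9; no source used here says which libraries entered peak calling or whether they were pooled. The authors deposited raw read counts per domain for the 23 H3K9ac libraries and a domain list with positions; input libraries are not analysed here.

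Counts were tested as deposited with edgeR 4.0.16 (R 4.3.3): filterByExpr, TMM scaling, robust quasi-likelihood fit, 2-sided test, Benjamini-Hochberg over all domains tested. The 11 tau and 12 CK-p25 libraries were fitted separately, 1 mean per group. CPM is relative to the reads in the tested domains after TMM scaling. DESeq2 1.42.0, other scalings (limma 3.58.1 for loess), filters, width limits and left-out libraries were alternatives. Counting error limits each value to the depth given in the text.

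The very broad domains and lists were chosen with earlier results of these data known. Named were the 10 widest, in each comparison and direction the 8 with the smallest adjusted p, up to 10 per direction called in all 3 comparisons, 3 on either side of the width limit, the 3 densest and 3 sparsest, and the 5 leading differences between ages. The 25 on chromosome 18 were counted but not named. Gene and marker lists were not tested, since no mm9 annotation or sequence was used here.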

Additional observations from a re-analysis of the deposited data

Results flagged for a closer look

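The effect of the tau transgene at 6 months differed from that at 11 months at 216 very broad domains, where edgeR tested the interaction; the ages compare females at 6 months with males at 11 months. The leading differences (11 months minus 6 months) were -0.96 on the log2 scale at chr9:58043494-58053100, -1.10 at chr2:28061404-28068757, -1.12 at chr9:106554205-106560104, -0.88 at chr5:132008383-132015125 and -0.78 at chr11:4956850-4965915. At chr5:132008383-132015125 the Tau effect was 0.16 at 6 months and -0.72 at 11 months. Age and sex changed together and cannot be told apart.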

How the results depend on the processing

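Alternatives were checked for 81 pairs of a named domain and a comparison, all chosen because the main fit called them. No pair changed direction: of 1424 alternative values, 1342 kept their call and 82 lost it, most of them in CK-p25. Domains named for width or density alone were not checked in this way. Very broad domains called were, at 11 months, 109 with cross correlation as a covariate, 663 at a width limit of 4000 bp and 84 at 7500 bp; for the age difference, 86, 402 and 54; at 2 weeks, 27 with DESeq2, 39 at an adjusted p of 0.01, 128 at 4000 bp and 17 at 7500 bp; at 6 weeks, 61 without the 2 shallowest libraries, 84 at 0.01, 241 at 4000 bp and 30 at 7500 bp; and 1 at 4000 bp for 6 minus 2 weeks. Leaving out 1 library at a time gave 0 to 1 at 6 months (1 without Tau replicate 1), 313 to 385 at 11 months, 151 to 268 for the age difference, 27 to 97 at 2 weeks, 69 to 160 at 6 weeks and 0 to 1 for 6 minus 2 weeks. The median log2 change moved to -0.0774 with library totals, -0.0235 with loess scaling and -0.182 at 7500 bp at 11 months, to -0.0868, -0.0333 and -0.190 for the age difference, to -0.00629 and -0.0142 with loess at 2 and 6 weeks, and to 0.0203 at 7500 bp at 6 months; with 1 library left out it ran from -0.0832 to -0.0424 at 2 weeks and from -0.0420 to -0.00414 for 6 minus 2 weeks. The share differed by -1.24 points at 4000 bp and -0.279 at 7500 bp at 11 months, -0.124 at 7500 bp at 2 weeks, and -0.863 and -0.218 at 6 weeks. A width limit changes how many domains enter; the cause of the other shifts was not tested.

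Replicate numbers showed at most a weak pairing of the samples: deviations of libraries with the same number correlated at -0.0113 to 0.0507. At 11 months every Tau library correlated best with the wild-type library of its own number. In each of the other comparisons, some diseased libraries did so and others did not. With the replicate block, 363 very broad domains were called at 11 months, 67 at 2 weeks, 127 at 6 weeks, 204 for the age difference and 0 at 6 months and for 6 minus 2 weeks. The median at 6 months was -0.0109 with the block. Domains with few reads in the shallowest libraries limit the narrow classes most. Averaged over the 23 libraries, every very broad domain had at least 151 reads. In the shallowest library, CK replicate 3 at 6 weeks, the median very broad domain had 142 reads.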
